A study of Homo sapiens with 7 samples.

Results

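The accessible chromatin around 6 genes of the ephrin and Eph receptor family, EFNA5, EFNB2, EPHA3, EPHA4, EPHA7 and EPHB2, was followed while H1 human embryonic stem cells were differentiated towards the endoderm of the pharynx. H1 is an established cell line, and ATAC-seq finds open chromatin as the places that the Tn5 transposase can reach and cut. The 7 libraries fall into 4 groups: 2 of undifferentiated stem cells (hESC), 2 of definitive endoderm (hDE), 2 of anterior foregut endoderm (hAFE) and 1 of pharyngeal foregut endoderm (hPFE). All groups are derived from H1, and no genetic change or agent is named for any of them. Neither the days nor the factors of the differentiation were stated in the labels. Only the hESC and hDE titles carry a mark of re-analysis and point to another series, so between hDE and hAFE stage and series cannot be told apart. The labels do not say whether replicates were separate cultures, so differences between replicates may be technical.

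A peak belonged to a gene where its summit lay in the gene's span or within 100 kb of either end (hg38), and 2210 of the 2093738 deposited peaks did, between 253 and 360 per library. EFNA5 was selected on these data, as a gene with many regions that opened in the hPFE library, so its count at that step is a description, and the other 5 genes were chosen with results of these data known. Overlapping peaks of a library were merged, and its 50,000 regions with the highest −log10 p are called strict. The strict regions of the 7 libraries, merged, made 129726 regions, and 164 of them lay at the 6 genes: 46 at EFNA5, 18 at EFNB2, 23 at EPHA3, 31 at EPHA4, 18 at EPHA7 and 28 at EPHB2. No region lay in the windows of 2 of these genes. Heights are given as summit over background, the summit pileup of cut sites divided by the most frequent background of the same library. Since −log10 p is set against a local background, a summit can be high without being strict.

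Eph receptors are receptor tyrosine kinases, and ephrins are their ligands, which stay bound to the membrane of the neighbouring cell. Ephrin-A ligands are held by a lipid anchor and bind mostly EphA receptors, ephrin-B ligands span the membrane and bind mostly EphB receptors, and EphA4 binds ligands of both classes. Signals run into both cells at a contact and set repulsion or adhesion, and they are known for tissue boundaries, axon guidance and the arterial side of blood vessels. In the mouse, ephrin-B2 takes part in the migration of the thymus, an organ that derives from the pharyngeal endoderm. EFNA5 encodes ephrin-A5 and EFNB2 encodes ephrin-B2, EPHA3, EPHA4 and EPHA7 encode A-class receptors, and EPHB2 encodes a B-class receptor that ephrin-A5 can also bind. Open chromatin is not a measure of the RNA or protein of these genes.

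The sequences around 4 start sites are shown because accessibility there followed no single pattern. Each line is 300 bases of RefSeq sequence (GRCh38.p14), 250 before and 50 after a start site, written 5′ to 3′ on the strand of the gene, with every CG pair in capitals. They lie at chr5:107670888-107671187, chr2:221574153-221574452, chr2:221572255-221572554 and chr6:93419510-93419809, all on the minus strand.
EFNA5 promoter 1: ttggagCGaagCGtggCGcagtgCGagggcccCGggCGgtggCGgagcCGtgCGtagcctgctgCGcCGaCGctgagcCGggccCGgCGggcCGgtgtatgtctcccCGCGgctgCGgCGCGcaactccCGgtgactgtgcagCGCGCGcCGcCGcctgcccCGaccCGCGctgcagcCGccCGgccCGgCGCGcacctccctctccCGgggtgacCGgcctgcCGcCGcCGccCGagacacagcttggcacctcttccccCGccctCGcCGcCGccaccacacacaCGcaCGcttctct
EPHA4 promoter 1: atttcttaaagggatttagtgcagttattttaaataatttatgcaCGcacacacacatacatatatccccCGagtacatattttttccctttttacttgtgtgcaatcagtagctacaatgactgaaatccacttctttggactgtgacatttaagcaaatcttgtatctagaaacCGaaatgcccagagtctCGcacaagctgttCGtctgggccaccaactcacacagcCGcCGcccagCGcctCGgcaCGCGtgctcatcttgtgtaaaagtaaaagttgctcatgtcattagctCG
EPHA4 promoter 2: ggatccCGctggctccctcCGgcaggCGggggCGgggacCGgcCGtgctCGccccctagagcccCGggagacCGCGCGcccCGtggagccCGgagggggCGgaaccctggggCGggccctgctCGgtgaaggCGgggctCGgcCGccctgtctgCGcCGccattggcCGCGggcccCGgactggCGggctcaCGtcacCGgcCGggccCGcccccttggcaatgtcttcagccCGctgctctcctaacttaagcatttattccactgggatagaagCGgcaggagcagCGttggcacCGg
EPHA7 promoter 1: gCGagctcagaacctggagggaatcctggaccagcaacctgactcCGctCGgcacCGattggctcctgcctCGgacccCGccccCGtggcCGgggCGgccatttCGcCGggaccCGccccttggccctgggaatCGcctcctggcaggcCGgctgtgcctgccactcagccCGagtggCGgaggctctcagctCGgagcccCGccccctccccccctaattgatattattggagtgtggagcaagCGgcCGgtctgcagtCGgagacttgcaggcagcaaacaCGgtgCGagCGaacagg

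The EFNA5 promoter held 47 CG pairs and was 78% G or C, against medians of 21 pairs and 62.3% over the 22131 RefSeq promoters of this length. It overlapped no strict region in any library. Peaks that were not strict lay over it in both hESC libraries (16.1 and 11.7 times background), in hAFE replicate 2 (13.8) and in hPFE (10.2), and none in hDE or in hAFE replicate 1. The first EPHA4 promoter, which begins farthest upstream, held 12 CG pairs at 43.0% G or C and had no peak in any of the 7 libraries. The second EPHA4 promoter, inside the gene span, held 33 pairs at 74.3% and lay under a region that was strict in all 7. The EPHA7 promoter held 24 pairs at 68.3% and lay under the highest start site region of the 6 genes. Motifs of 5 factor families were searched on both strands, and none occurred in these 4 sequences. Among all promoters of this length the AP-1 motif TGANTCA occurred in 6.15%, and the FOX motif TGTTTAC occurred in 2.85%. The GATA motif AGATAA occurred in 7.88%, the SOX motif ACAAAG in 13.6% and the TEAD motif GGAATG in 12.2%. Of the 10 promoters listed for the 6 genes, only the first of EPHA3 and the second of EPHA7 held a match, both to the GATA motif, and a match describes letters and not a bound site.

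**Figure D1:**
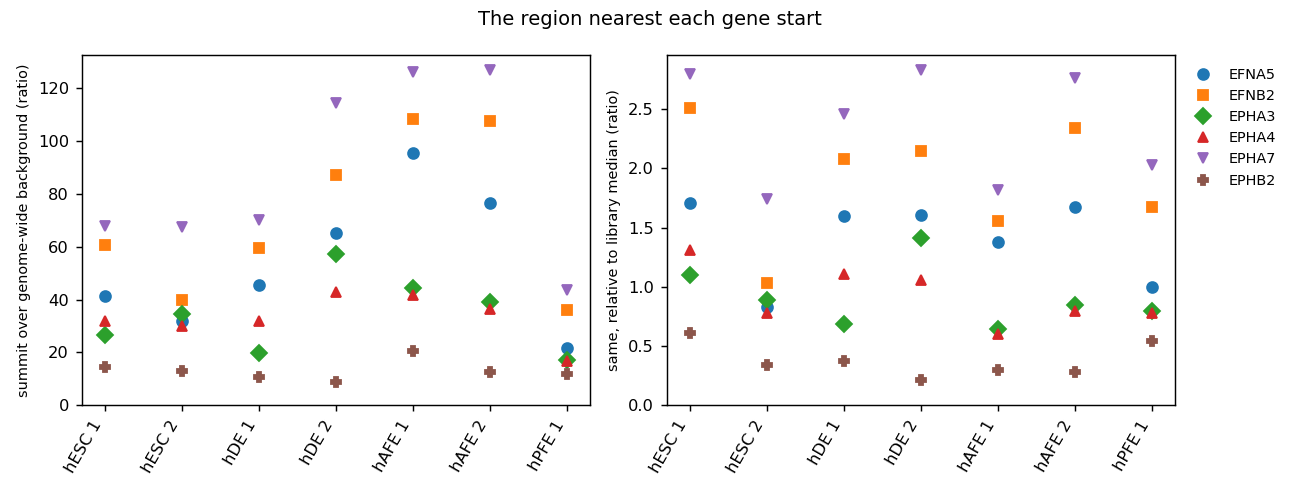
Each marker is the region nearest the start of 1 gene in 1 of the 7 libraries, as summit over genome-wide background on the left. On the right it is divided by the library's median over the regions open in all 7. The EPHB2 region was not strict in every library, the EFNA5 region lies upstream of the start, and the EPHA4 region lies inside the gene. EPHA7 was highest in each library on both scales, and EPHB2 was lowest in each.

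The region nearest the start of each gene had a peak in each library, with EPHA7 highest and EPHB2 lowest throughout. For EFNA5 this region lies upstream of the start, and the promoter itself had no peak in hDE or in hAFE replicate 1. For EPHA4 it lies inside the gene, and the first promoter had no peak in any library. At EPHA7 the region chr6:93419432-93420102 stood 67.7 and 67.5 times above background at the hESC stage, 70.4 and 115 at hDE, 126 and 127 at hAFE and 43.8 at hPFE. At EFNB2 the region chr13:106535273-106536745 stood at 60.6 and 40.0 in the hESC libraries, 59.6 and 87.2 in the hDE libraries, 109 and 108 in hAFE and 36.0 in hPFE. Both regions were highest in the hAFE libraries and lowest in hPFE, and the replicates of hDE differed more than those of hAFE. Over the regions strict in all 7, the median summit was likewise highest in the hAFE libraries and lowest in hPFE, at 24.2 and 38.7 times background at the hESC stage, 28.6 and 40.6 at hDE, 69.3 and 45.9 at hAFE and 21.6 at hPFE. Divided by these medians, EPHA7 ran from 1.74 to 2.83 and EFNB2 from 1.03 to 2.51, with hPFE at 2.03 and 1.67, inside the range of the other libraries.

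The strict region nearest the EFNA5 start, chr5:107672196-107673142, lay 1259 bp upstream of it. It stood at 41.2 and 32.0 in the hESC libraries, 45.7 and 65.1 in the hDE libraries, 95.5 and 76.6 in hAFE and 21.6 in hPFE, and at 0.83 to 1.71 of the library medians. At EPHA3 the region chr3:89107271-89108018 stood at 26.5 and 34.4 at the hESC stage, 19.7 and 57.2 at hDE, 44.6 and 39.2 at hAFE and 17.3 at hPFE. The hDE replicates of EPHA3 enclosed the values of hESC and hAFE, so no stage stood apart there except that hPFE was lowest before scaling. The region nearest the first EPHA4 start, chr2:221572946-221574099, lay inside the gene, 103 bp from that start, and stood between 16.8 and 43.1. The region over the second EPHA4 start, chr2:221571607-221572845, stood between 21.3 and 96.4. At EPHB2 the region chr1:22710295-22712053 was strict in 4 of 7 libraries and stood at 14.7 and 13.0 in the hESC libraries, 10.7 and 8.69 in the hDE libraries, 20.7 and 12.7 in hAFE and 11.7 in hPFE. EPHB2 was the only gene of the 6 whose region nearest the start was not strict throughout, and its promoter is the richest in G and C of them, at 83.0%.

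Regions open at every stage lay mostly near starts. Of the 164 regions 14 were strict in all 7 libraries, or 8.54%, against 11.2% of all regions, with 3 each at EFNA5, EFNB2 and EPHA3, 2 each at EPHA4 and EPHB2, and 1 at EPHA7. Within 5 kb of a start site of a protein-coding gene lay 9 of the 14, against 62.7% of the 14017 regions open throughout that lay on chromosomes with a start site in the table used. Away from starts, EFNA5 had a region open throughout inside the gene at chr5:107571561-107572585, 98.7 kb from the start. It stood at 26.1 and 39.2 at the hESC stage, 36.1 and 78.1 at hDE, 90.5 and 55.3 at hAFE and 33.6 at hPFE. At EPHB2 the highest region open throughout, chr1:23018839-23020439, lay downstream of the gene, with values from 18.5 to 95.5. It lies beside an end of KDM1A, a histone demethylase gene whose span reaches into the window. It is therefore not placed away from starts. Of the 3 at EFNB2, chr13:106567137-106568566 lay beyond ARGLU1, the gene next to EFNB2, and was not assigned to either gene.

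**Figure D2:**
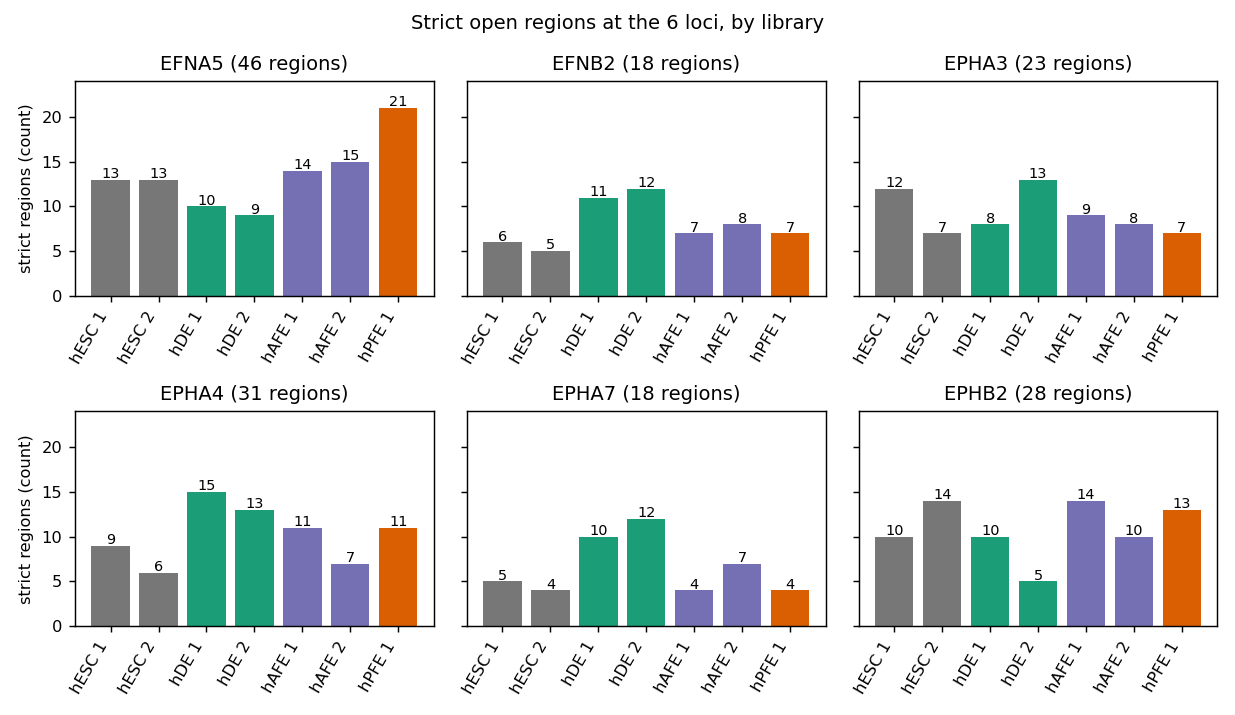
Bars give the number of strict regions at each gene in each of the 7 libraries, from 0 on 1 common axis. EFNA5 had 21 in hPFE and 9 to 15 in the other libraries, and EFNB2 and EPHA7 had their highest numbers in both hDE libraries.

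The number of strict regions followed the stage differently at each gene. EFNA5 had 13 and 13 in the hESC libraries, 10 and 9 in the hDE libraries, 14 and 15 in hAFE and 21 in hPFE. EFNB2 had 6 and 5 at the hESC stage, 11 and 12 at hDE, 7 and 8 at hAFE and 7 at hPFE. EPHA7 had 5 and 4 in the hESC libraries, 10 and 12 in the hDE libraries, 4 and 7 in hAFE and 4 in hPFE. At EFNB2 and EPHA7 both hDE libraries lay above each of the other 5, and at EFNA5 both lay below each of the other 5. EPHA4 had 9 and 6 at the hESC stage, 15 and 13 at hDE, 11 and 7 at hAFE and 11 at hPFE, so hDE was again highest without overlap. How many of all genes set hDE apart in this way was not counted. The separation is therefore not shown to be particular to these genes. EPHA3 had 12 and 7 in the hESC libraries, 8 and 13 in the hDE libraries, 9 and 8 in hAFE and 7 in hPFE. EPHB2 had 10 and 14 at the hESC stage, 10 and 5 at hDE, 14 and 10 at hAFE and 13 at hPFE. At EPHA3 and EPHB2 the replicates of a stage differed as much as the stages. Over the 6 genes the strict regions numbered 49 to 64 of 164 per library, or 29.9% to 39.0%, where all regions gave 37.7% to 38.4%. Strict is a rank within a library, so a count can fall because other regions ranked higher and not because a region closed.

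**Figure D3:**
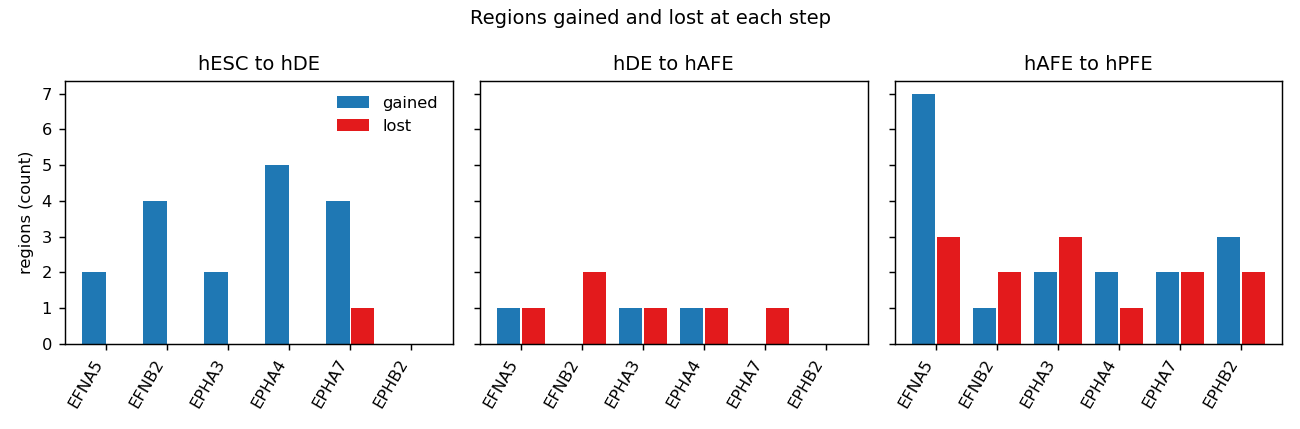
Bars give the regions gained and lost at each gene in each step, where gained means strict in every library of the later stage with no peak in the earlier stage, and lost means the reverse. At hESC to hDE gains were at 5 genes and the 1 loss was at EPHA7, and at hAFE to hPFE EFNA5 had 7 of the 17 gains.

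From hESC to hDE, each gene of the 6 but EPHB2 gained open regions, and almost none was lost. In all, 17 of 164 regions were gained, that is strict in both hDE libraries without a peak in either hESC library, or 10.4%, against 5.43% of all regions. Only 1 was lost, or 0.61%, against 1.15% of all regions. EPHA4 gained 5, EFNB2 and EPHA7 4 each, EFNA5 and EPHA3 2 each, and EPHB2 none. Of 19970 protein-coding genes 120 had as many as EPHA4 or more, 295 as many as EFNB2 and EPHA7, and 2141 as many as EFNA5 and EPHA3. At least 1 was found at 32.6% of genes. These counts were not scaled to the number of regions at a gene, which was 31 at EPHA4. Between single libraries, 21 to 33 regions at these genes opened and 4 to 8 closed, against 0 or 1 between replicates of a stage. Over all 129726 regions, 61 to 2137 differed in this way between replicates of a stage. As shares these were 12.8% to 20.1% opened and 2.44% to 4.88% closed, against 7.64% to 13% and 4.35% to 5.52% of all regions. With 2 libraries against 2 the smallest two-sided exact permutation p is 0.333, so no p is given. The backgrounds were 4.58 and 7.94 counts in hDE, against 2.11 and 4.62 in hESC, so that hDE replicate 1 lay close to hESC replicate 2 and the others stood apart. The part of depth in this excess was not tested.

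Among the ligand genes, the highest of these regions lay upstream of EFNA5 at chr5:107765999-107767226, 95.5 kb from the start. It stood at 44.4 and 67.0 in hDE, with deposited folds of 13.4 and 14.7, against no peak in hESC. It was still strict in hAFE replicate 1 (37.4), had a weaker peak in hAFE replicate 2 (8.05) and had none in hPFE. The other EFNA5 region, chr5:107295761-107296497 beyond the 3′ end, stood at 13.8 and 32.8 in hDE and had no peak in any other library. At EFNB2, chr13:106617551-106618027 stood at 30.2 and 55.0 in hDE, against no peak in hESC, and kept strict rank later, with 19.8 and 12.5 in hAFE and 6.36 in hPFE. It lay 82.1 kb upstream of the EFNB2 start, beyond ARGLU1, the gene next to it. Also in the EFNB2 window, chr13:106625359-106626115 (8.52 and 43.0 in hDE) had peaks in hDE and in no other library, and it too lay beyond ARGLU1. The same pattern was found beyond the 3′ end of EFNB2 at chr13:106474870-106475319 (14.2 and 29.4 in hDE). A region beyond ARGLU1 was not assigned to either gene.

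Among the receptor genes, EPHA4 gained regions inside the gene at chr2:221458546-221459267 (12.7 and 34.6 in hDE) and chr2:221535387-221536621 (20.3 and 28.1), against no peak at either in hESC. Outside the gene, chr2:221388367-221389201 beyond the 3′ end stood at 12.7 and 31.1 in hDE and had no peak in any other library, and chr2:221593926-221594908 upstream stood at 11.1 and 30.7 in hDE. In hAFE the first and second of these had a weak peak in replicate 1 (5.4 and 4.5) and none in replicate 2. Another gained region inside EPHA4, chr2:221518298-221519255, stood at 9.39 and 19.0 in hDE, had weak peaks in both hAFE libraries (6.75 and 3.37) and was strict in hPFE (11.7). EPHA7 gained chr6:93317626-93318375 inside the gene, at 11.6 and 51.9 in hDE against no peak in hESC, and it too was absent from the later stages. Another inside EPHA7, chr6:93302639-93303349, stood at 8.52 and 35.3 in hDE, with 2.60 in hAFE replicate 2 and 2.83 in hPFE. Beyond its 3′ end, chr6:93235733-93236094 stood at 8.74 and 24.3 in hDE, against no peak in hESC. The regions of hDE replicate 2 were higher than those of replicate 1 at each of the 17, with medians of 32.7 and 11.6, and its library was also the deepest. EPHA3 gained chr3:89371230-89371775 (19.4 and 34.4), with no peak at any other stage, and chr3:89117403-89117687 (10.5 and 33.8), 9.9 kb from the start, which was also strict in both hAFE libraries (28.8 and 16.6). EPHB2, the only B-class receptor gene of the 6, gained none, with 28 regions in its window. Outside the 6, the B-class genes EPHB1 and EPHB6 gained 3 and 1, and EPHB3 and EPHB4 none. The A-class gene EPHA6 gained 5, EPHA1 and EPHA5 1 each, and EPHA2, EPHA8 and EPHA10 none. Both classes thus held genes with and without gains. The 1 region lost, chr6:93454590-93454981, lay upstream of EPHA7 and had no peak in the 5 later libraries, against 12.8 and 11.5 in hESC.

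Most regions gained in hDE did not last to hPFE, at these genes as over all regions gained in hDE. Of the 17, 3 were strict in both hAFE libraries, or 17.6%, against 9.97% of all regions gained in hDE. No peak was left in either hAFE library at 6, or 35.3%, against 40.7% of all regions gained, and none in hPFE at 13, or 76.5%, against 76.3%.

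From hDE to hAFE, losses outnumbered gains at these genes, and few regions were called. In all 3 regions were gained, or 1.83%, against 2.05% of all regions, and 6 were lost, or 3.66%, against 3.2%. Both shares were near the background. The gains were 1 each at EFNA5, EPHA3 and EPHA4, and the losses 2 at EFNB2 and 1 each at EFNA5, EPHA3, EPHA4 and EPHA7. All 6 lost regions had peaks in hDE and at no other stage. They include the regions of EFNA5, EFNB2, EPHA3, EPHA4 and EPHA7 given above without a peak after hDE. Between single libraries 7 to 11 regions opened, or 4.27% to 6.71% against 5.31% to 6.67% of all regions. In the same pairs 11 to 17 closed, or 6.71% to 10.4% against 5.34% to 9.36%, where replicates of a stage gave 0 or 1.

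The gained region at EPHA4, chr2:221490384-221491133 inside the gene, stood at 21.2 and 10.9 in hAFE, against no peak in hDE, and it stayed strict in hPFE at 13.6. At EFNA5, chr5:107436219-107436924 inside the gene stood at 29.7 and 19.5 in hAFE, against no peak in hDE. A weak peak lay there in hESC replicate 2 (3.46) and in hPFE (3.53). At EPHA3, chr3:89514358-89515045 beyond the 3′ end stood at 32.0 and 10.4 in hAFE and had no peak at any other stage. Inside EFNA5 a higher region, chr5:107454882-107455774, was not among the gains, since both hDE libraries held weak peaks there. Named after its values were seen, it stood at 60.8 and 54.3 in hAFE, against 3.50 and 10.96 in hDE, had no peak in hESC, and was strict in hPFE at 17.5.

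**Figure D4:**
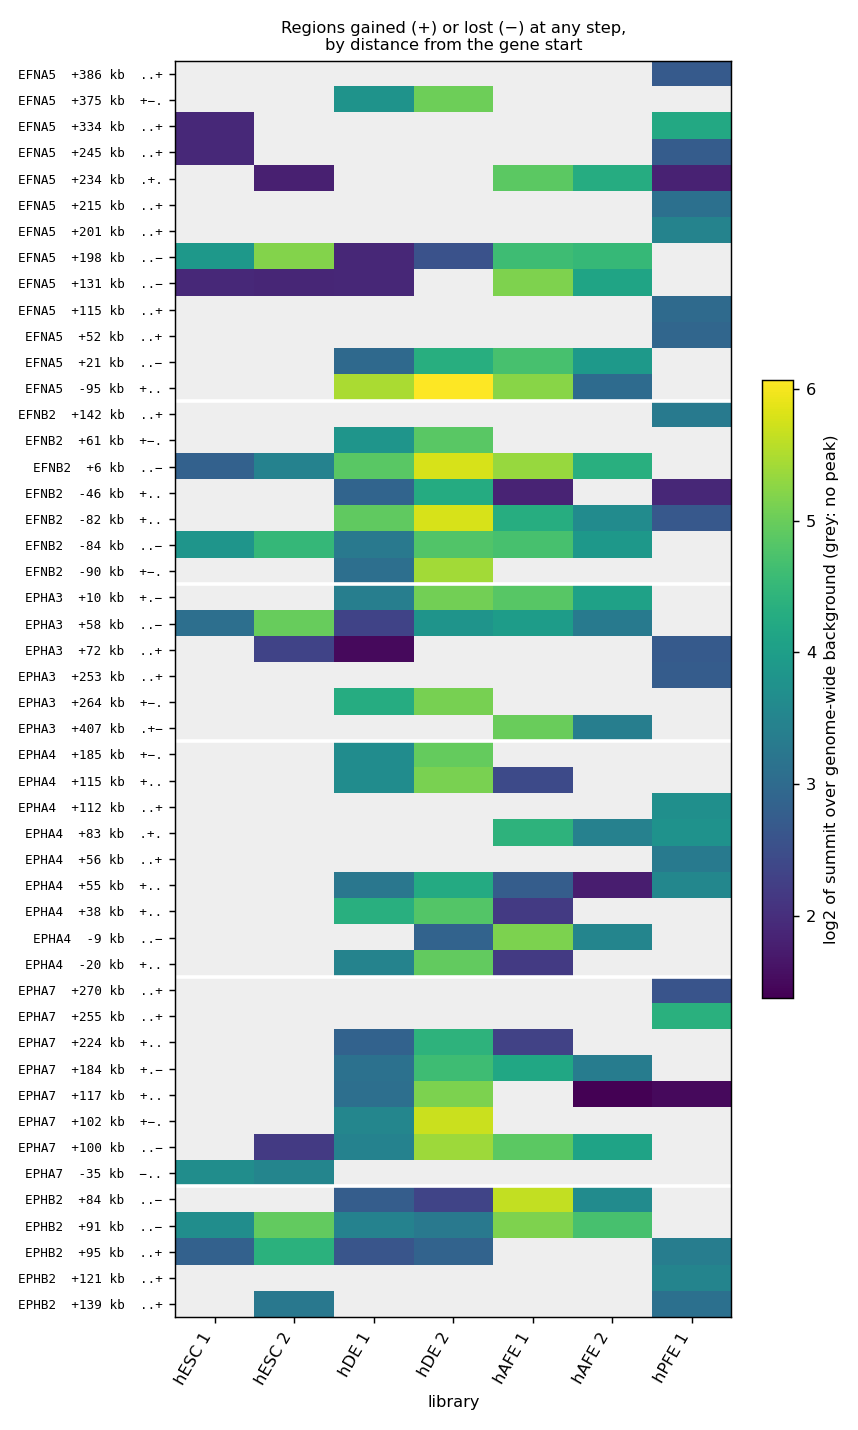
Rows are the 48 regions gained or lost at any step, by gene and signed distance from the gene start, and columns the 7 libraries. Color gives log2 of the summit over background, grey marks no peak, and the 3 signs beside each row give gain, loss or neither for the steps hESC to hDE, hDE to hAFE and hAFE to hPFE. Regions gained at hPFE had summits of 6.01 to 20.5 times background and those gained in hDE of 7.21 to 67.0, a scale on which hPFE was lowest also over regions open throughout.

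From hAFE to hPFE, regions opened and closed in similar numbers, and EFNA5, the gene chosen for its openings, had the most of them. In all 17 of 164 regions were gained, that is strict in hPFE without a peak in either hAFE library, or 10.4%, against 8.45% of all regions. EFNA5 had 7, EPHB2 3, EPHA3, EPHA4 and EPHA7 2 each, and EFNB2 1. Without EFNA5 the share was 8.47%, 10 of 118, beside the 8.45% of all regions. Lost were 13 regions, or 7.93%, against 4.18% of all regions, with 3 each at EFNA5 and EPHA3, 2 each at EFNB2, EPHA7 and EPHB2, and 1 at EPHA4. Without EFNA5 the loss was 8.47%. The hPFE stage is 1 library, so nothing at this step has a replicate check, and a gain rested on 1 strict library where earlier gains rested on 2. The hPFE library had a background of 5.66 counts, against 2.22 and 3.85 in hAFE, and the part of depth in the gains was not tested. Between hPFE and a single hAFE library 19 and 25 regions opened and 18 and 24 closed. Replicates of the other stages gave 0 or 1, and none exists for hPFE. As shares, 11.6% and 15.2% opened, against 10.2% to 10.6% of all regions, and 11% and 14.6% closed, against 7.73% to 8.69%.

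**Figure D5:**
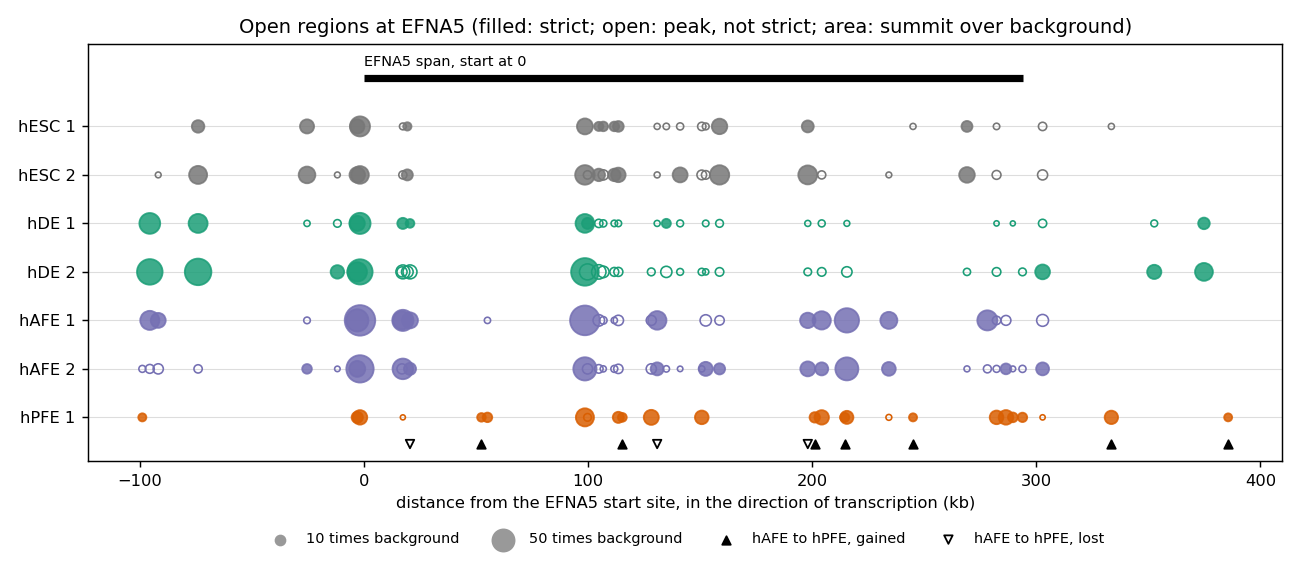
Each circle is a region at EFNA5 in 1 of the 7 libraries, by distance from the start in the direction of transcription, with area in proportion to summit over background. Filled circles are strict, open circles are weaker peaks, and triangles mark the 7 regions gained and the 3 lost from hAFE to hPFE, spread over and beyond the 294.0 kb span.

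The 7 EFNA5 regions were spread along the gene and beyond its 3′ end, and none was as high as the median region open throughout. Their summits stood at 6.54 to 18.4 times background in hPFE, with no peak in hAFE, where the weakest deposited peak of the 2 libraries stood at 3.15 and 2.60. The highest, chr5:107337157-107337634, lay beyond the 3′ end, 333.5 kb from the start, at 18.4 in hPFE (deposited fold 12.3), and of the earlier libraries only hESC replicate 1 had a peak (3.79). Inside the gene, chr5:107469614-107469879 stood at 11.1 and chr5:107456241-107456691 at 8.65 in hPFE, and neither had a peak in any other library. In all, 5 of the 7 had a peak in hPFE alone, and the others had 1 in hESC replicate 1. Among protein-coding genes, 89 of 19970 had 7 or more gained regions at this step, and 48.2% had at least 1. Beside these gains EFNA5 has a large window with 46 regions and no other protein-coding gene, and its next neighbour FBXL17 lies 188.1 kb away.

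Of the 21 EFNA5 regions strict in hPFE, 7 were gained, 3 were open throughout and 11 had at least a weak peak in hAFE. Within the last part of the gene 4 such regions, named after their values were seen, stood close together. They were chr5:107376699-107377325 over the 3′ end (9.01 in hPFE), chr5:107381267-107381526 (9.71), chr5:107384248-107384689 (21.9) and chr5:107388081-107388923 (19.1). In hAFE replicates 1 and 2 the third had 9.90 and 11.9 and the fourth 7.2 and 4.93, and the first and second had a peak in replicate 2 alone (5.19 and 3.37). Of these only the third was strict in a library other than hPFE, which was hAFE replicate 2.

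The 3 regions EFNA5 lost were all inside the gene. Their summits over background exceeded most of those gained, but divided by the library medians over regions open throughout they were alike, at 0.37 (median) for the gains in hPFE, against 0.38 in each hAFE library for the losses. Toward the middle of the gene, chr5:107539678-107540208 had no peak in hPFE, against 35.6 and 17.4 in hAFE. Near the start, chr5:107649953-107650469 had no peak in hPFE, against 26.1 and 15.1 in hAFE, and had none in hESC. The third, chr5:107472543-107473234, had no peak in hPFE, against 24.3 and 22.8 in hAFE, and was strict in hESC as well (14.7 and 36.8). It lay 198.1 kb from the start, next to the gained region at 201.2 kb, so that openings and closings were interleaved along the gene.

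At the other ligand gene, EFNB2, 1 region was gained and 2 were lost. The gain, chr13:106393708-106394134, stood at 9.89 in hPFE, with no peak in any other library. The loss inside the gene, chr13:106528842-106529661, had no peak in hPFE, against 40.5 and 20.2 in hAFE, and was strict in hDE too (29.1 and 55.0). The other, chr13:106619394-106620270, lay beyond ARGLU1 and had no peak in hPFE, against 26.1 and 14.8 in hAFE. Between these, the start site of EFNB2 remained open in hPFE, as given above.

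Among the receptor genes, the highest gain at hPFE lay beyond the 3′ end of EPHA7 at chr6:93164693-93165216, with 20.5 in hPFE (deposited fold 11.8) and no peak in any other library. The other at EPHA7, chr6:93149479-93149771, stood at 6.01. EPHA4 gained chr2:221461868-221462316 (13.1) and chr2:221517409-221518021 (9.89), both inside the gene and both with a peak in hPFE alone. EPHB2 gained chr1:22832084-22832338 (11.3 in hPFE), which had no earlier peak. The other gains of EPHB2 had no peak in hAFE and a peak before it. The region chr1:22805351-22806038 (10.2 in hPFE) had peaks in hESC (7.1 and 20.8) and hDE (6.12 and 7.3). It was strict in hESC replicate 2, where it stood higher than in hPFE. At chr1:22849649-22850524 (8.65 in hPFE) hESC replicate 2 had a peak (9.52) that was not strict. The gains at EPHA3, chr3:89360129-89360514 and chr3:89179725-89179975, were low at 6.71 and 6.54. Of the 17 gains 12 had no peak at any other stage, or 7.32% of the 164 regions, against 6.24% of all regions. For the other stages the same share was 0.61% (1 region) at hESC against 0.611% of all regions, 3.66% (6) at hDE against 1.99%, and 0.61% (1) at hAFE against 0.595%.

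At the receptor genes, 8 regions were lost. Among them, EPHB2 lost chr1:22794576-22795321, with no peak in hPFE, against 49.97 and 12.5 in hAFE and 6.77 and 5.04 in hDE. It also lost chr1:22801556-22802153, with no peak in hPFE, against 35.6 and 26.0 in hAFE, a region present at both earlier stages. EPHA4 lost chr2:221583459-221584059 upstream of the start, with no peak in hPFE, against 35.1 and 11.4 in hAFE. EPHA7 lost chr6:93319197-93319773, with no peak in hPFE, against 29.7 and 17.1 in hAFE, and chr6:93235733-93236094, against 18.0 and 10.1 in hAFE. EPHA3 lost chr3:89514358-89515045, the region it had gained at hAFE, chr3:89117403-89117687, the region gained in hDE near its start, and chr3:89165527-89166220 (15.8 and 9.86 in hAFE). Over the 6 genes, the median of the 17 gains was 8.70 times background in hPFE, and the median of the 13 losses was 29.7 and 15.1 in the hAFE libraries. Divided by the library medians over regions open throughout, these were 0.40 in hPFE, against 0.43 and 0.33 in hAFE, so the difference in height was not seen on that scale.

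None of the regions gained or lost lay near a start site, and over all regions few of those called did. With at most 17 regions per step and direction, 0 is close to the share of all regions. At the 6 genes 0 regions of any step lay within 5 kb of a start, where 4.05% to 5.44% of the regions called the same way did, counted on chromosomes with a start site in the table used. Of the 164 regions, 16 lay there. Regions gained in hDE had a median length of 737 bp and those gained in hPFE 449 bp, against 761 and 434 bp over all regions gained at these steps. Of the 17 gained in hDE 7 lay inside a gene of the 6, 5 upstream and 5 downstream. Of the 17 gained in hPFE 12 lay inside, 5 downstream and none upstream. Of all regions, called or not, 33 of 46 at EFNA5, 3 of 18 at EFNB2 and 17 of 23 at EPHA3 had a summit inside the gene. The same held for 21 of 31 at EPHA4, 7 of 18 at EPHA7 and 16 of 28 at EPHB2. Whether the positions differed between steps was not tested. In all 48 of the 164 regions were gained or lost at some step, or 29.3%, against 21.1% of all regions, with 44.4% at EPHA7, 38.9% at EFNB2, 29.0% at EPHA4, 28.3% at EFNA5, 26.1% at EPHA3 and 17.9% at EPHB2.

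The 16 other ephrin and Eph receptor genes had 301 regions, counted in the same way, and their difference from the 6 genes was not tested. Of these 11 were gained from hESC to hDE (3.65%) and 6 lost (1.99%), 2 were gained from hDE to hAFE (0.664%) and 7 lost (2.33%), and 14 were gained from hAFE to hPFE (4.65%) and 8 lost (2.66%). In the same order, 5.43%, 2.05% and 8.45% of all regions were gained, and 1.15%, 3.2% and 4.18% lost. Over the 3 steps the genes of the family with the most gained regions were EPHA6, an A-class receptor gene, with 11, EFNA5 with 10 and EPHA4 with 8. These 3 have 42, 46 and 31 regions, the most of the family, and the counts were not scaled to that number. EPHA6 also had the most lost, 7. At EPHA6 5 were gained at hDE and 5 at hPFE. Each of the 301 regions was counted once, and 6 of them, at EPHA8, also lie in the window of EPHB2 and are among the 164.

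The 24 genes listed as partners of Eph signalling had 512 regions, of which 6.25% were gained at hDE against 5.43% of all regions, and 5.27% at hPFE against 8.45%. The most gained over the 3 steps were at PTPN13, a phosphatase gene, with 8 of 20 regions. Next were VAV3, KALRN and ARHGEF28, with 6 each of 28, 38 and 24. FYN, a Src family kinase gene, KALRN and ADAM10, the gene of a protease that cleaves ephrins, had the most lost, with 4 each of 36, 38 and 16. These are the highest counts of the 24 genes and were not compared with other genes. Of all regions 5.43%, 2.05% and 8.45% were gained at the 3 steps in order, and 1.15%, 3.2% and 4.18% lost.

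Profiles most like those of the members were sought over the 7 libraries, as the share of a gene's regions that were strict, by Euclidean distance among 8792 to 8796 genes with at least 15 regions. Nearest to EFNA5 were CYP26A1 (0.089), AOPEP (0.089) and LOC124905366 (0.098), where the median gene was at 0.593. CYP26A1 had 22.2% and 27.8% strict at the hESC stage, 22.2% and 16.7% at hDE, 33.3% and 27.8% at hAFE and 44.4% at hPFE. The nearest to the others were DEFA6 for EFNB2 (0.12), EPS8 for EPHA3 (0.112), LOC110384692 for EPHA4 (0.107), DCDC1 for EPHA7 (0.129) and FUBP3 for EPHB2 (0.069).

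The stage labels were checked with lists of marker genes by the number of strict regions per library. The 5 stem cell genes had 38 and 54 in hESC and 22 to 35 in the 5 later libraries, and the 6 definitive endoderm genes had 63 and 51 in hDE and 30 to 46 in the others. The 6 foregut and pharyngeal genes had 51 in hPFE and 43 to 53 in the others, so they did not set hPFE apart. Markers of other cell types were counted in the same way. Mesenchyme and neural crest genes had 59 in hPFE and 55 to 68 in the others, neural genes 22 against 17 to 39, and endothelial and blood genes 33 against 30 to 42. Of the 165 mesenchyme and neural crest regions 15 were gained at hPFE, or 9.09%, beside the 8.45% of all regions. Of the 122 foregut and pharyngeal regions 3 were gained there (2.46%) and 8 lost (6.56%), losses standing beside 4.18% of all regions. In bulk libraries more open chromatin per cell and more cells of a type cannot be told apart.

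The limits of the windows and of the strict rank were also read. At EFNA5 the outermost regions inside the window lay 91.6 and 98.8 kb from the gene, and the nearest outside lay 128.6 and 101.6 kb away. At these genes the last region inside the strict rank in hPFE had rank 48932 with a −log10 p of 15.9, and the first outside had rank 50108 with 15.3.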

How the data were processed

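Each of the 7 libraries had its own peak list. Per the labels' protocols, tagmented DNA of nuclei was amplified, size selected on beads and sequenced from both ends. Per the submitters' processing notes the build was hg38 and DiffBind was used. Aligner and peak caller: not given in the sources used here. Peak names in the deposited lists run to 300000 in each library, and 298508 to 299374 peaks remained, so that no peak means none among these.

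The fold of a peak is the authors' deposited ratio of its summit to a local background, and −log10 p and −log10 q are deposited values that grow with depth, of which −log10 p ranked regions within a library. The deposited score was not used. Each fold and −log10 p were met by a whole summit count P with fold (P + 1) / (L + 1) within 0.001, in 100% of peaks, and the most frequent L of the weaker peaks was the genome-wide background, from 2.11 counts (hESC replicate 1) to 7.94 (hDE replicate 2), which stands in for depth. Read numbers are unknown, and no interval was computed.

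Regions overlapped by at least 1 bp were merged over libraries (chromosomes 1 to 22 and X). Groups came from the sample titles. No test was made: the steps compare 2 libraries with 2 or 1 with 2, and counts are set beside those of all regions. The members and all lists were chosen with earlier results of these data known. Regions named were the 3 highest per gene, step and direction, those at gene ends, and the highest open throughout. Genes, starts and promoters came from RefSeq tables (GRCh38.p14). Exons and introns were not told apart. The recovery of summit counts and the merging were checked on simulated data. Python 3.11.15, numpy 2.4.6, pandas 2.3.3 and matplotlib 3.10.9 were used. Alternatives changed the definition of strict (25,000 or 100,000 regions, 10 times background, −log10 q of at least 5), the window, and the libraries.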

Additional observations from a re-analysis of the deposited data

How the results depend on the processing

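No paired analysis was possible because no result comes from a test, and no label ties the replicate numbers of different stages together. The counts at the 6 genes depended on how many regions are called strict, and of 56 alternative values 23 lay within 1.5 times the reported count. In the order gained and lost, with 25,000 strict regions per library there were 5 and 0 from hESC to hDE, 0 and 3 from hDE to hAFE, and 3 and 2 from hAFE to hPFE. With 100,000 there were 28 and 5, 12 and 15, and 38 and 41. With −log10 q of at least 5 there were 30 and 4, 15 and 17, and 32 and 44. With a summit of at least 10 times background the loss from hESC to hDE was 3, the gain from hDE to hAFE 6 and the gain from hAFE to hPFE 6, below the 17 regions then lost. Which direction was larger at the last step therefore depended on the definition, and at the first step gains exceeded losses under each. Against all regions under the same setting, the share gained in hDE was higher at the 6 genes under each of these 4 settings (5.68% against 3.82% with 25,000, 9.03% against 6.48% with 100,000, 6.16% against 3.3% with 10 times background and 7.13% against 5.26% with −log10 q). The share lost at hPFE was higher with 100,000 (13.2% against 7.58%), 10 times background (8.06% against 4.84%) and −log10 q (10.5% against 7.84%). With 25,000 it was close to that of all regions (2.27% against 1.84%). The share gained at hPFE was lower with 25,000 (3.41% against 5.34%). It was close to that of all regions with 100,000 (12.3% against 11.9%), 10 times background (2.84% against 2.69%) and −log10 q (7.6% against 7.57%). With 25,000 these shares rest on few of 88 regions, 5 gained in hDE and 2 lost and 3 gained at hPFE. With gene spans alone, 7 were gained and 0 lost from hESC to hDE, and 2 were lost from hDE to hAFE.

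Leaving out 1 library at a time gave 18 to 24 gained and 2 to 5 lost from hESC to hDE, 4 to 7 and 6 to 12 from hDE to hAFE, and 19 to 25 and 18 to 24 from hAFE to hPFE. Among these were 12 lost at hAFE without hAFE replicate 1 and 11 without hDE replicate 1, 7 and 5 gained there without hAFE replicates 2 and 1, and 24 lost at hPFE without hAFE replicate 2. The 1 loss from hESC to hDE became 2 without hESC replicate 1, 4 without hESC replicate 2, 3 without hDE replicate 1 and 5 without hDE replicate 2. EFNA5 had 8 and 11 gains at hPFE against 1 hAFE library. Fewer libraries make each call easier by construction. Of 336 values for single genes 208 lay within 1.5 times. The hPFE stage is 1 library, and weak regions in the shallow libraries cannot be told from none.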
